A study of Mus musculus with 12 samples.

Results

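Ptprn, Dgcr2, Tenm3, Sorcs2, Itm2c and Spg11 are 6 mRNAs that code for membrane proteins, or for a protein that works on membranes, known mainly from neurons, and they were studied here for 5-methylcytosine (m5C). They are 6 of the 16746 genes with a listed cytosine. Their methylated sites are all cytosines of these genes with a coverage of at least 20 reads, at least 6 methylated (unconverted) reads and a level, the methylated share of the methylated and converted reads, of at least 10% in both replicates of at least 1 condition. This gave 9 sites of the 6462 that passed in any gene, 1 each in Dgcr2, Tenm3, Itm2c and Spg11, 2 in Ptprn and 3 in Sorcs2. Sites and genes were chosen by these measured levels, so the levels as such are a description. The Dgcr2 and Itm2c sites, the Ptprn site in exon 19 and 1 Sorcs2 site passed only in polysome conditions, so a higher polysome level at these sites is partly what chose them.

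The cells were neural stem cells (NSCs) from the subventricular zone of adult wild-type male C57BL/6 mice of 6 to 8 weeks. They were cultured for 4 days with folic acid at 1.5 µM (LF), 10 µM (MF) or 80 µM (HF), and MF served as the control dose. Poly(A) RNA was taken from total RNA (LF, MF, HF) and from pooled polysome fractions with more than a few ribosomes (pLF, pMF, pHF), with 2 biological replicates in each of the 6 groups and 12 libraries in all. All groups share strain, genotype and culture, and folate is the donor pathway for the methyl group of S-adenosylmethionine. Bisulfite turns unmethylated cytosine to uracil, and a cytosine that is still read as C is scored as methylated.

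Ptprn (IA-2) is a catalytically inactive member of the receptor-type tyrosine phosphatases and sits in the membrane of dense-core vesicles. Dgcr2 is a putative adhesion receptor from the DiGeorge syndrome critical region. Tenm3, a teneurin, is a large transmembrane protein that guides synaptic partners and binds latrophilins. Sorcs2 is a VPS10-domain receptor that sorts cargo and acts with the neurotrophin receptor p75. Itm2c (BRI3) belongs to the BRI family, whose members bind the amyloid precursor protein. Spg11 codes for spatacsin, which serves lysosome reformation and is mutated in a hereditary spastic paraplegia. In mRNA, m5C is placed mainly by NSUN2, which is known to favour a G-rich 3′ side, and by NSUN6, which is known to favour the motif CTCCA in a hairpin loop.

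The 9 sites are shown with 10 bases on each side, from the mm10 (GRCm38) genome on the coding strand, 5′ to 3′, with the methylated cytosine as the only capital. They are printed because the base context and the place in the mRNA are what the rule did not use. The cytosines lie at chromosome 1 positions 75251753 and 75247363 (Ptprn, minus strand), chromosome 16 position 17841431 (Dgcr2, minus), chromosome 8 position 48342414 (Tenm3, minus), chromosome 5 positions 36019279, 36018128 and 36017900 (Sorcs2 sites 1, 2 and 3, minus), chromosome 1 position 85907834 (Itm2c, plus) and chromosome 2 position 122111789 (Spg11, minus).
Ptprn exon 19: tggacttccgCaggtgagcaa
Ptprn exon 23: cctgctttatCcatgctagaa
Dgcr2 exon 10: ctaatgtggcCaaatgtttgc
Tenm3 exon 9: acgggcaataCtccaagggcc
Sorcs2 site 1: ccggagagggCacaggaccac
Sorcs2 site 2: gagcgaggccCgggtgtctca
Sorcs2 site 3: ctatggggggCacaaagctgg
Itm2c exon 6: gctgatctttCaggtgggagg
Spg11 exon 4: gagagtgtctCaggacttgga

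By the GENCODE vM21 annotation, 6 of the 9 sites lie in a 3′UTR and 3 in coding sequence. The Ptprn site of exon 19 of 23 is the last base of codon 893 and lies 2 bases before the end of the exon. The genomic bases after that exon end are intronic, and the spliced mRNA carries the next exon in their place, as printed here because the context on the 3′ side differs between them.
Ptprn exon 19, spliced: tggacttccgCaggaaagtga
The CNGG context remains in the spliced sequence. Within 25 bases on the genome, the 12 exonic cytosines around this site were all listed and the 8 intronic ones were listed in no library, while the 3 cytosines in the matching stretch of exon 20 were all listed at a coverage of 1201 to 3392 reads. The other Ptprn site lies in the 3′UTR, 186 bases after the stop codon in exon 23. The Dgcr2 site lies 1090 bases after the stop codon in exon 10 of 10, and the Itm2c site 196 bases after it in exon 6 of 6. The Sorcs2 sites lie 49, 1200 and 1428 bases after the stop codon in exon 27. The Tenm3 site is the third base of codon 559 in exon 9 of 29, and the Spg11 site is the first base of codon 259 in exon 4 of 40.

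The motifs were searched on the coding strand, starting at the methylated cytosine. Of the 9 sites, 4 started CNGG (Ptprn exon 19, Sorcs2 site 2, Itm2c and Spg11), and 3 of these 4 started CAGG, which is contained in CNGG. Over all sites, 5.08% started CNGG and 2.31% CAGG, and among the 2354 sites that, like the 9, lay alone within 25 bases the shares were 9.73% and 5.23%. Among the 248 sites at the positions of the published list of high-confidence sites they were 44.4% and 25.4%. Only the Tenm3 site started CTCCA, as did 0.542% of all sites, 0.892% of those that lay alone and 5.24% of those at listed positions. These matches describe the letters and not a binding enzyme.

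Before the values, 2 conditions call for care. The 2 libraries labelled HF stand apart from the other total mRNA libraries: they hold 27353 and 21195 cytosines with a variant base, against 4734 to 18155 in the other libraries, and 89.1% of all sites tested differed between them and MF. The study, which filtered its sites further and measured expression by RNA-seq, reported very few differences between HF and MF in total mRNA. The library pHF 2 also stands apart, in which 38353 cytosines exceeded a level of 90%, while the other libraries held 3465 or fewer of them. Polysome comparisons that use the libraries labelled HF are therefore also given with MF in their place, while the comparison of these libraries with MF and the interaction at the high dose have no such alternative, and the counts of calls without each replicate are in the closing section. The lists held 797260 to 2071190 cytosines per library at a median coverage of 336 to 946 reads, and listed no cytosine with under 10 reads or without a methylated read. A cytosine that is not listed may thus be unmethylated or poorly covered.

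Markers of NSCs and of other cell types were read from the same lists. The 6 NSC markers summed to a mean coverage of 48285 to 54089 reads per cytosine for LF and MF, 36337 and 31926 with the HF label and 37551 to 59345 in polysome libraries, and 5 of the 6 were listed in every library. Fabp7, a fatty acid binding protein of radial glia and stem cells, was lower in the libraries labelled HF than in MF, with a centred log2 difference of -2.17 (limma adjusted p = 1.91e-07). Of the 4 NSC markers tested in this comparison, 1 was called higher and 2 lower, where 67.3% of all genes were called. Nes, the neural stem cell intermediate filament, had 2954 to 5839 in total and 1272 to 1916 in polysome libraries, while Sox2 was named at no cytosine. The 6 neuron markers summed to 908 to 1535 in total and 657 to 1117 in polysome libraries. Most of this came from the tubulin Tubb3 and from Map2, while Rbfox3 was named at no cytosine, Snap25 was listed in 1 library and the highest value of Syt1 was 17.0. The 5 fibroblast and mural markers summed to 15366 and 12392 with the HF label, beside 5463 to 6834 for LF and MF and 3194 to 9059 in polysome libraries. The oligodendrocyte lineage markers moved the other way, with 5229 and 4335 in the libraries labelled HF against 10790 to 12852 in LF and MF and 5366 to 8374 in polysome libraries. The astrocyte markers gave 1427 and 1415 there, 2504 to 3145 in LF and MF and 628 to 2990 in polysome libraries. These sums are of reads as listed and are not scaled for depth. The median coverage per listed cytosine was 376 and 363 in the libraries labelled HF, 524 to 609 in LF and MF and 336 to 946 in polysome libraries. Acta2, a fibroblast and mural marker, was reported by the study's own RNA-seq, another measure, as lower in HF than in MF. In such bulk libraries fewer cells of a type and less RNA per cell cannot be told apart, and the part of these marker levels in the results below was not tested. The name neuronal thus refers to where these proteins are known to act, and not to the cells studied.

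Reads are given below as methylated reads of the coverage, which at some sites holds a few reads with another base that the level leaves out. Ptprn, the dense-core vesicle protein, had its deepest site in exon 19. In LF the cytosine was read as methylated in 79 of 1208 and 79 of 1103 reads, MF gave 84 of 1331 and 96 of 1407, and the libraries labelled HF gave 302 of 3500 and 179 of 2414. In the polysome libraries it was methylated in 167 of 1625 and 155 of 1469 reads in pLF, in 225 of 1607 and 209 of 1715 in pMF, and in 232 of 1714 and 367 of 2912 in pHF. All 6 polysome libraries lay above all 6 total libraries. The site passed the rule only in polysome conditions, so this separation is a description, and its share over all sites was not counted. Means of the total groups were 6.85% ± 0.445 for LF, 6.57% ± 0.362 for MF and 8.02% ± 0.862 for the libraries labelled HF, against 10.4% ± 0.194 in pLF, 13.1% ± 1.29 in pMF and 13.1% ± 0.659 in pHF (SD, n = 2 each).

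The 3′UTR site of Ptprn in exon 23 had few reads in total mRNA. Methylated reads made up 7 of 38 and 6 of 38 in LF, 10 of 34 and 5 of 42 in MF, and 12 of 57 and 10 of 63 with the HF label. The polysome libraries gave 94 of 431 and 99 of 454 in pLF, 90 of 386 and 71 of 340 in pMF, and 94 of 405 and 118 of 550 in pHF. The 6 polysome values were close to each other and lay within the wide range of the total libraries. Their means were 21.8% in pLF, 22.1% ± 1.72 in pMF and 22.4% ± 1.25 in pHF, against 17.1% ± 1.86, 20.7% ± 12.4 and 18.5% ± 3.66 for LF, MF and the libraries labelled HF (SD, n = 2 each).

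Dgcr2, the putative adhesion receptor, had 69 of 782 and 111 of 1005 methylated reads in LF and 92 of 1077 and 89 of 1318 in MF. The libraries labelled HF had 257 of 3077 and 191 of 2927. In polysome mRNA the counts were 98 of 735 and 193 of 868 in pLF, 122 of 662 and 144 of 657 in pMF, and 112 of 567 and 177 of 967 in pHF. Every polysome library lay above every total library, at a site that the polysome levels alone had chosen. The replicates of pLF differed most, and their mean was 17.8% ± 6.28, beside 20.2% ± 2.47 in pMF and 19.0% ± 1.01 in pHF (SD, n = 2 each). LF had a mean of 9.93% ± 1.57, MF of 7.65% ± 1.27 and the libraries labelled HF of 7.44% ± 1.30 (SD, n = 2 each). In the files nearly all cytosines of Dgcr2 carry the name of Gm20518, a read-through gene that spans it, and they were counted here as Dgcr2 where they fall inside its annotated span. Reads of the 2 genes cannot be told apart. In the libraries labelled HF the coverage also changed at this place, with a median of 2591 and 2398 reads over the 100 bases upstream of the site and 1123 and 923 downstream, while in LF and MF both sides were nearly alike. The polysome libraries had the step the other way, with 577.5 and 775 reads upstream and 1285.5 and 1473.5 downstream in pLF, and 520 and 637 upstream and 828 and 1365 downstream in pHF. In pMF 2 a single upstream cytosine had 406 reads, against 992 downstream, and pMF 1 listed none upstream. The part of these steps in the Dgcr2 levels was not tested.

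Sorcs2, the VPS10-domain receptor, had its main site at site 2. The total libraries gave 25 of 308 and 37 of 354 methylated reads in LF, 41 of 429 and 45 of 462 in MF, and 23 of 329 and 26 of 302 under the HF label. The polysome libraries gave 35 of 116 and 58 of 160 in pLF, 65 of 146 and 44 of 100 in pMF, and 40 of 123 and 76 of 250 in pHF. Every polysome library lay far above every total library, at a site that passed the rule only in polysome conditions. LF averaged 9.28% ± 1.65, MF 9.65% ± 0.130 and the libraries labelled HF 7.80% ± 1.14, against 33.2% ± 4.30 in pLF, 44.3% ± 0.368 in pMF and 31.5% ± 1.50 in pHF (SD, n = 2 each). Among the member sites tested between fractions under the same dose label, this gap was the widest.

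The other two Sorcs2 sites passed in the libraries labelled HF and in no other condition. Site 1 was methylated in 46 of 215 and 49 of 198 reads there, in 2 of 336 reads in pLF 2 and in 1 of 165 in pHF 1, and was listed in no other library. Site 3 was methylated in 26 of 170 and 16 of 140 reads in the libraries labelled HF, and in at most 4 of 298 reads (pMF 2) in the other 5 libraries that listed it. Site 2, which lies 1151 bases from site 1 and 228 bases from site 3, stood at 6.99% and 8.61% in the same 2 libraries. Sites 1 and 3 therefore rest wholly on the libraries labelled HF, and without them neither is a site.

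Tenm3, the teneurin, had its coding site at CTCCA. LF gave 111 of 444 and 99 of 448 methylated reads, MF 88 of 452 and 82 of 492, and the libraries labelled HF 185 of 775 and 157 of 582. In polysome mRNA the coverage was low, with 4 of 19 and 10 of 27 methylated reads in pLF, 7 of 25 and 6 of 21 in pMF, and 10 of 22 and 19 of 48 in pHF. In total mRNA MF was the lowest of the 3 doses, and its 2 libraries did not overlap those of LF or those labelled HF. Replicates did not overlap, in either direction, at 1036 of all 2620 sites tested between LF and MF. Between the libraries labelled HF and MF this held at 1233 of 1339 sites. The 3 total groups averaged 23.5% ± 2.05 (LF), 18.1% ± 1.98 (MF) and 25.4% ± 2.20 (libraries labelled HF) (SD, n = 2 each). The polysome means were 29.0% ± 11.3 in pLF, 28.3% ± 0.404 in pMF and 42.5% ± 4.15 in pHF (SD, n = 2 each).

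Itm2c, the BRI family member, had the smallest number of reads among the sites listed in all libraries. Only 1 of 33 and 4 of 36 reads were methylated in LF and 4 of 28 and 1 of 23 in MF, beside 10 of 104 and 15 of 119 in the libraries labelled HF. The polysome counts were 15 of 124 and 37 of 346 in pLF, 28 of 244 and 29 of 201 in pMF, and 26 of 201 and 29 of 248 in pHF. The polysome means of 11.4% ± 0.992, 13.0% ± 2.09 and 12.3% ± 0.878 stood close together, whereas LF (7.07% ± 5.71) and MF (9.32% ± 7.03) had a wider spread, on 23 to 36 reads per library (SD, n = 2 each).

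Spg11, the spatacsin mRNA, had 11 of 81 and 17 of 94 methylated reads in LF, 17 of 121 and 7 of 105 in MF, and 8 of 78 and 5 of 109 with the HF label. LF, which alone passed the rule, had a mean of 15.8% ± 3.19, against 10.4% ± 5.22 for MF and 7.42% ± 4.01 for the libraries labelled HF (SD, n = 2 each). The LF and MF values overlapped. In no polysome library was the cytosine listed, and since the lists leave out both poorly covered and unmethylated cytosines, its polysome level is unknown.

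**Figure D1:**
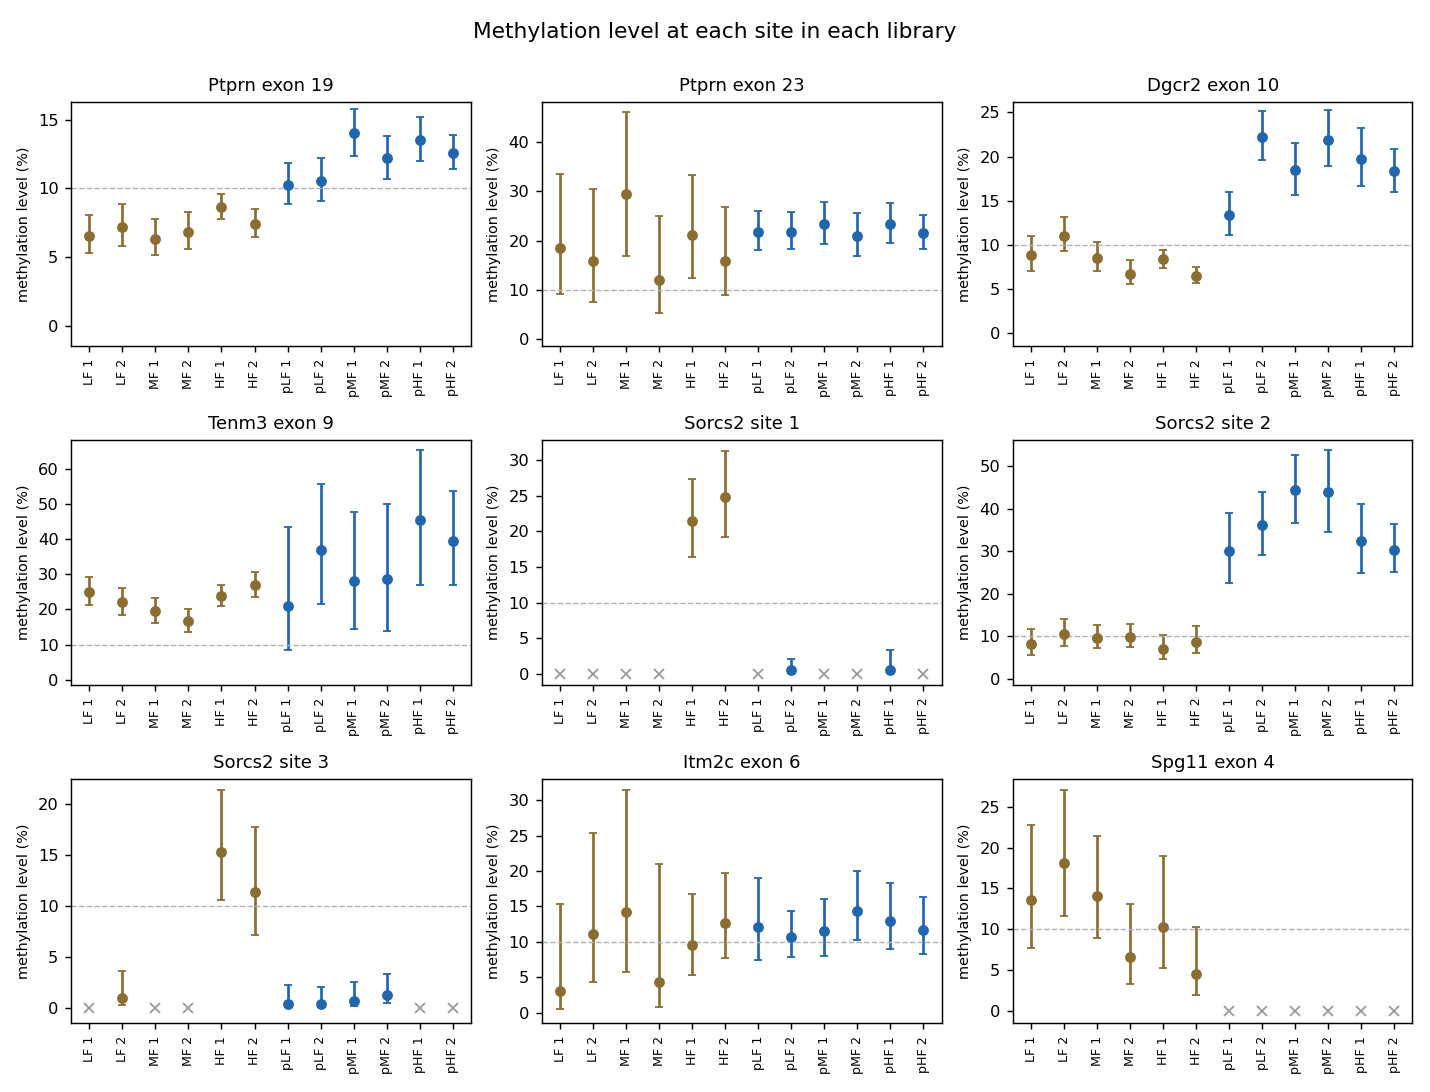
Methylation level (%, vertical axis) of each of the 9 sites in the 12 libraries (horizontal axis); total libraries are brown, polysome libraries blue, bars are 95% Wilson intervals of the reads, a grey cross marks a library that did not list the cytosine and the dashed line is the 10% limit of the rule. Ptprn exon 19, Dgcr2 and Sorcs2 site 2 have all 6 polysome libraries above the total libraries, and passed the rule only in polysome conditions. Sorcs2 sites 1 and 3 reach the limit only in the libraries labelled HF.

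The comparison of polysome with total mRNA asks whether the methylated form of an mRNA takes another share among translated copies. Reads were pooled over replicates, and Fisher's exact test (two-sided) was applied to each site that passed in any of the 6 conditions and had a coverage of at least 20 in each of the 4 libraries compared, with the Benjamini-Hochberg adjustment over all sites of the comparison. Intervals are 95% Newcombe intervals of the difference and, as for the Wilson intervals, cover counting error only, since PCR copies of a molecule are not independent. The level was higher in pLF than in LF at 3 of the 5 member sites tested, where 52.8% of all sites tested differed and 47.2% were higher. For pMF against MF it was 3 of 6, where 51.3% of all sites differed and 38.2% were higher, and for pHF against the libraries labelled HF 4 of 6, where 64.4% differed and 35.1% were higher. Both polysome replicates lay above both total replicates at 4 of 5, 4 of 6 and 5 of 6 member sites, as they did at 58.1%, 45.6% and 36.6% of all sites tested. Since the polysome levels helped to choose these sites, nothing is read from these counts. None of the member sites tested was lower in polysome mRNA after adjustment, where 45 of 799, 102 of 778 and 208 of 710 of all sites were. This too partly follows from the choice of sites by their polysome levels, and nothing is read from it. Sorcs2 sites 1 and 3, which were high in the libraries labelled HF and at most 1.34% in the polysome libraries that listed them, could not be tested, because in no comparison of the 2 fractions did all 4 libraries list them. The median difference over all sites tested was 4.48, 1.54 and 0.0 percentage points in the 3 comparisons.

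Sorcs2 site 2, Dgcr2 and Ptprn exon 19 passed the rule only in polysome conditions, so their differences are given as a description without the p of Fisher's exact test. Sorcs2 site 2 was 24.3 percentage points higher in pLF than in LF (interval 18.5 to 30.4), 34.7 points higher in pMF than in MF (28.2 to 41.2) and 23.3 points higher in pHF than in the libraries labelled HF (18.3 to 28.5). At Dgcr2 the difference was 8.09 points in LF (5.75 to 10.5; 11.2 without replicate 1 and 4.53 without replicate 2), 12.6 points in MF (10.2 to 15.1) and 11.4 points against the libraries labelled HF (9.39 to 13.5). The Ptprn site of exon 19 differed least of the 3, by 3.57 points in LF (2.06 to 5.05), 6.49 in MF (5.01 to 7.97) and 4.81 against the libraries labelled HF (3.63 to 6.01). These intervals leave out the spread between replicates. Limma on the log odds, which weighs that spread, did not call the Ptprn site in any of the 3 comparisons (adjusted p = 0.217, 0.0743 and 0.188) or Dgcr2 in LF (adjusted p = 0.160).

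Tenm3 rose by 16.2 points from the libraries labelled HF to pHF (5.17 to 28.1, adjusted p = 0.00767, Fisher's exact test), on 22 and 48 polysome reads. The call was lost without replicate 1 (12.6 points, adjusted p = 0.106) and without replicate 2 (21.6 points, adjusted p = 0.0574), and by limma (adjusted p = 0.0886). From MF to pMF the difference at Tenm3 was 10.3 points (-0.98 to 24.7, adjusted p = 0.191, Fisher's exact test). The Itm2c site differed by 3.82, 3.01 and 1.04 points in the 3 comparisons, with intervals from -5.17 to 9.0, from -8.51 to 9.52 and from -4.49 to 5.89. The Ptprn site of exon 23 differed by 4.70, 2.44 and 3.91 points, with intervals from -5.62 to 12.1, from -8.26 to 10.5 and from -4.35 to 10.4. Leaving out 1 replicate turned the sign at Itm2c in each of the 3, with ranges from -0.417 to 9.07, from -2.81 to 10.1 and from -0.911 to 3.32 points, and at Ptprn exon 23 in pMF against MF, from -6.10 to 8.98 points, so these differences carry no direction. Neither site had a call there, and these intervals leave room for differences as wide as the one at Ptprn exon 19.

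With MF in place of the libraries labelled HF, an alternative chosen after seeing the data, 49.0% of all sites differed between pHF and MF. Sorcs2 site 2 was 21.4 points higher in pHF, Dgcr2 11.3 points, Ptprn exon 19 6.37 points and Tenm3 23.4 points (adjusted p = 4.93e-05 for Tenm3, Fisher's exact test). The first 3 of these sites were chosen partly by their pHF levels, and both comparisons share the pHF libraries.

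**Figure D2:**
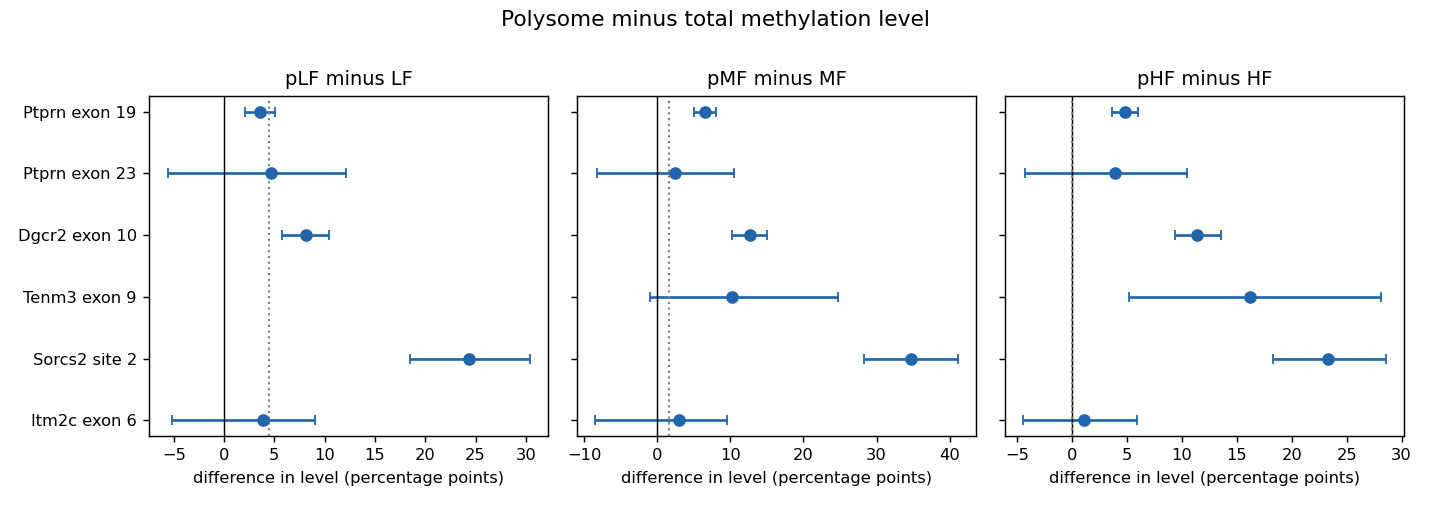
Difference in methylation level, polysome minus total (percentage points, horizontal axis), of the member sites tested (vertical axis) in the LF, MF and HF comparisons, with 95% Newcombe intervals of the pooled reads; the dotted line is the median over all sites tested. Tenm3 was not tested in LF, and Sorcs2 site 2 lies farthest right in each panel, at 24.3, 34.7 and 23.3 points.

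The folate comparisons ask whether the supply of methyl groups moves these levels. In total mRNA Spg11, which passed the rule only in LF, was left out of the member sites tested between LF and MF. None of the 6 member sites tested there differed by Fisher's exact test after adjustment, where 0.84% of all sites did. At an unadjusted p under 0.05 there were 2, Tenm3 and Dgcr2, and the beta-binomial test and limma also called 0. Tenm3 was 5.53 points higher in LF (1.82 to 9.24, adjusted p = 0.0854, Fisher's exact test), and Dgcr2 was 2.51 points higher (0.78 to 4.30, adjusted p = 0.0854, Fisher's exact test). The difference at Dgcr2 was 4.29 points without replicate 1 and 0.273 points without replicate 2. The replicates of LF lay above those of MF at both sites, as at 28.6% of all sites tested. The difference was 0.27 points at Ptprn exon 19 (-1.11 to 1.67) and -0.29 points at Sorcs2 site 2 (-3.19 to 2.74).

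Between the libraries labelled HF and MF, 2 of 7 member sites were called, where 89.1% of all sites were. Tenm3 was 7.19 points higher (3.78 to 10.5, adjusted p = 5.34e-05, Fisher's exact test), which fell to 4.40 points without replicate 2 (adjusted p = 0.0843). Ptprn exon 19 was 1.56 points higher (0.37 to 2.69, adjusted p = 0.0133, Fisher's exact test), and 0.592 points without replicate 1 (adjusted p = 0.552). Dgcr2 differed by -0.10 points (-1.39 to 1.11), and Spg11 by -3.67 points (-9.16 to 2.02, adjusted p = 0.243, Fisher's exact test). Leaving out 1 replicate gave -3.79 or -2.08 points at Spg11.

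In polysome mRNA, 1 of 6 member sites was called between pLF and pMF, where 10.9% of all sites were, and 1 of 6 between pHF and pMF, where 6.87% were. By limma on the log odds neither of these calls nor those against the libraries labelled HF passed, with adjusted p from 0.129 to 0.971. Ptprn exon 19 was lower in pLF than in pMF, with a difference of -2.66 points and an interval from -4.23 to -1.08 (adjusted p = 0.0121, Fisher's exact test). Without replicate 1 the difference was -1.64 points with an adjusted p of 0.857. Sorcs2 site 2 was lower in pHF than in pMF, with a difference of -13.2 points and an interval from -20.9 to -5.43 (adjusted p = 0.0195, Fisher's exact test). That call was lost without replicate 1 (adjusted p = 0.178), without replicate 2 (adjusted p = 0.416) and by the beta-binomial test (adjusted p = 0.0514). At the same site the difference of pLF from pMF was -10.6 points (-18.8 to -2.24, adjusted p = 0.111, Fisher's exact test), so pMF was the highest of the 3 polysome groups, whereas in total mRNA the 3 groups lay between 7.80% and 9.65%. Tenm3 stood 13.2 points higher in pHF than in pMF with an interval from -4.74 to 29.2, which its few polysome reads left wide.

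Whether the gap between polysome and total mRNA itself differed with folate was tested by limma on the log odds at the 352 sites that had the coverage in every library, 5 of them member sites. Against MF, the gap in LF differed at 0 of the 352 sites after adjustment and at 22 at an unadjusted p under 0.05, and no other tool was run. The gap with the high dose, which rests on the libraries labelled HF, differed at 180 sites, and at none of the 5 member sites.

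Around the sites, the neighbouring cytosines were nearly fully converted. Within 25 bases, the highest level in any library at another cytosine was 0.677% around Ptprn exon 19 (9 of 1329 reads), 0.776% around Dgcr2, 1.41% around Tenm3 and 2.36% around Spg11. It was 2.97%, 4.23% and 2.73% around Sorcs2 sites 1, 2 and 3, and 3.57% around Ptprn exon 23 on a single read of 28. Around Itm2c 8 of 10 neighbouring cytosines reached 5% in some library, with a highest value of 6.45% (2 of 31 reads in LF 2), so by this measure that site stood out least from its neighbours. In polysome libraries no other Itm2c cytosine with at least 20 reads exceeded 3.70% (pHF 1), against 10.7% to 14.4% at the site. All 9 sites lay alone within 25 bases, as did 2354 of the 6462 sites of all genes.

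**Figure D3:**
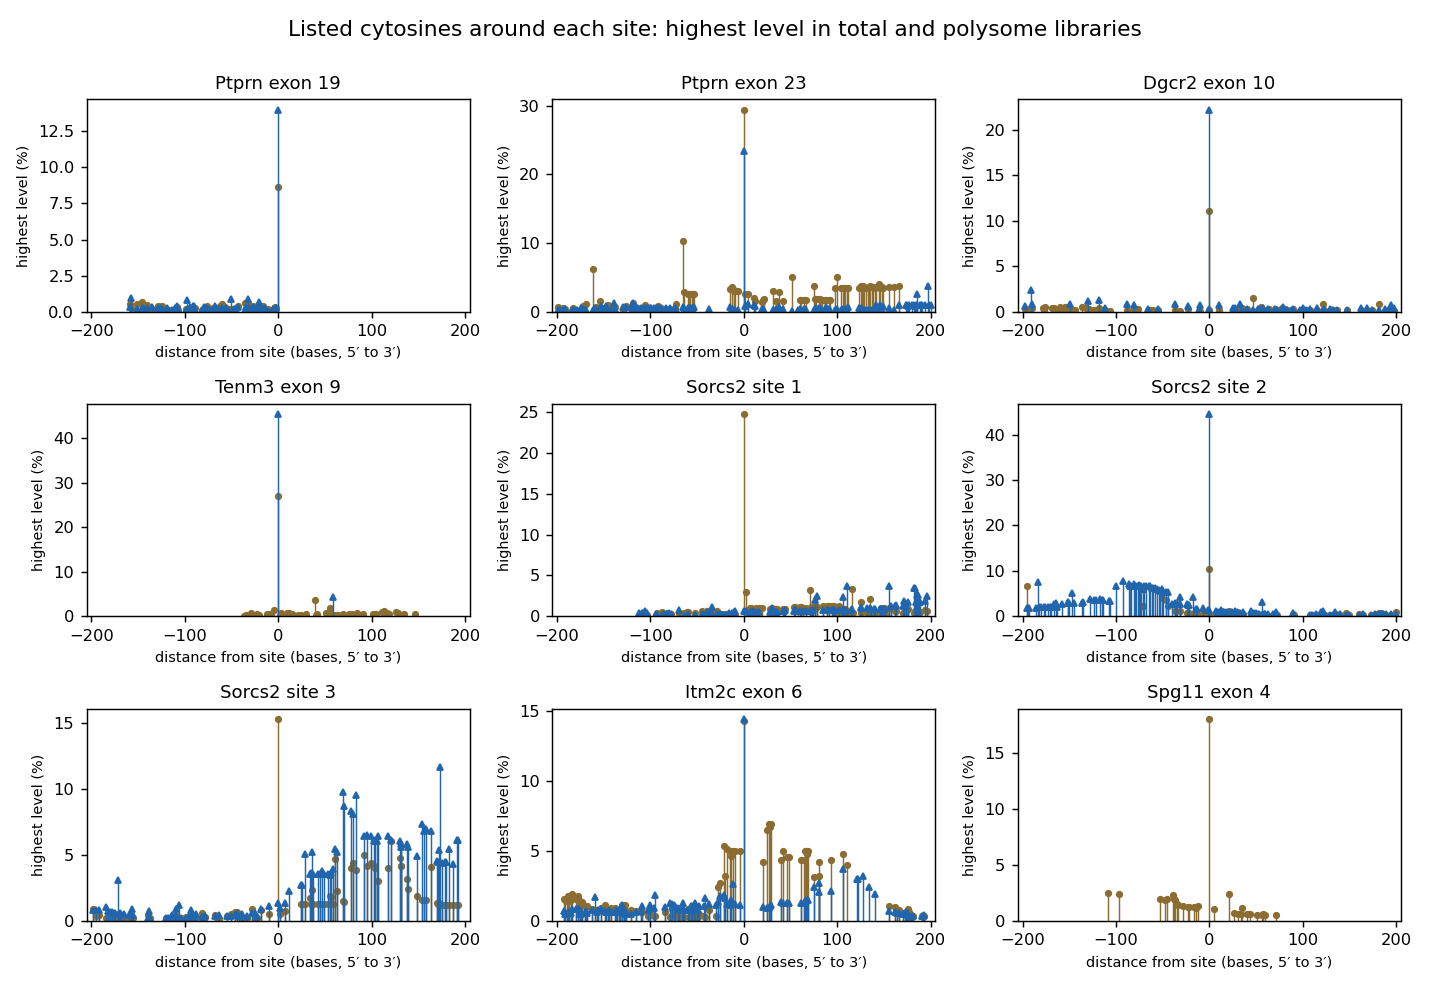
Highest level in any total library (brown circles) and any polysome library (blue triangles) at each listed cytosine with a coverage of at least 20 (%, vertical axis) against the distance to the site in bases along the genome (horizontal axis), for the 9 sites. Each site stands above the cytosines within 25 bases of it, of which those around Itm2c reach 6.45%, and farther downstream of Sorcs2 site 3, within the distance shown, single polysome values reach 11.6%.

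Across the rest of each mRNA, the share of unconverted reads at cytosines with a level under 5% gives the background. In total libraries it was 0.225% to 0.385% in Ptprn, 0.12% to 0.169% in Dgcr2, 0.196% to 0.250% in Tenm3, 0.143% to 0.267% in Sorcs2, 0.0785% to 0.0975% in Itm2c and 0.375% to 0.578% in Spg11, beside 0.139% to 0.193% over all genes. In polysome libraries it was higher in Dgcr2 (0.230% to 0.315%) and in Tenm3 (0.333% to 0.512%), and overlapped the total range in Spg11 (0.561% to 1.10%), Ptprn and Itm2c. In Sorcs2 it overlapped only through pHF 2 (0.203%), and was 0.334% to 0.507% in the other polysome libraries. The Sorcs2 median was 0.349% in polysome and 0.156% in total libraries. Over all genes the polysome range was 0.128% to 0.191%. These shares count listed cytosines only, which hold at least 1 unconverted read, so a lower coverage raises them. All of them were far below the 10% limit of the sites. Another 12 cytosines of these mRNAs reached the limits of the rule in 1 library or in single libraries of different groups, 5 in Ptprn, 5 in Tenm3, 1 in Sorcs2 and 1 in Spg11. Of these, the Ptprn cytosine at chromosome 1 position 75258275 did so in 2 libraries, with 7 of 43 reads in pLF 2 and 7 of 46 in pMF 1.

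The coverage of a gene, which the rule did not use beyond its minimum, was compared as the log2 of the mean coverage per cytosine, centred on the median gene of each library and tested by limma. Over cytosines listed in all 12 libraries only Itm2c had the 10 cytosines the test required, with 106 of them. Itm2c was higher in pLF than in LF by 0.52 on the log2 scale (SE 0.12, adjusted p = 0.00276), where 62.9% of all genes were called, and higher in pMF than in MF by 0.35 (SE 0.12, adjusted p = 0.0242), where 62.3% were. The second call was lost on leaving out any 1 of the 4 libraries compared, with adjusted p between 0.0702 and 0.113. Between pHF and the libraries labelled HF the difference was -1.19 (SE 0.12, limma adjusted p = 5.13e-06), where 73.7% were called. The libraries labelled HF stood 1.50 above MF (SE 0.12, limma adjusted p = 1.82e-06), where 67.3% of genes were called, while pHF and pMF differed by -0.03 (SE 0.12, limma adjusted p = 0.886), where 0.675% were. With MF in their place, an alternative chosen after seeing the data, Itm2c was 0.32 higher in pHF (SE 0.12, limma adjusted p = 0.0364), where 63.7% were called. The negative sign at the high dose thus went with the libraries labelled HF, in which the markers of other cell types also differ, and their part in it was not tested.

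An alternative chosen after seeing the data took, for each comparison, the cytosines listed in its 4 libraries and genes with at least 3 of them, which brought in up to 6 of the members. In pMF against MF, Ptprn and Itm2c lay higher in polysome mRNA, and Dgcr2, Sorcs2 and Tenm3 lower. Of the members, 2 of 4 were called in pLF against LF (53.5% of all genes called), 5 of 5 in pMF against MF (75.9%) and 3 of 5 in pHF against the libraries labelled HF (75.4%). The mean coverage of Ptprn was 1373 and 1377 reads in pMF and 1068 and 1147 in MF, a centred log2 difference of 0.95 (SE 0.08, limma adjusted p = 2.16e-04). From LF to pLF it was 1.00 (SE 0.28, limma adjusted p = 0.0305), and from the libraries labelled HF to pHF it was 0.00 (limma adjusted p = 0.996). Itm2c rose by 0.81 in pLF (limma adjusted p = 0.00807) and by 0.52 in pMF (limma adjusted p = 0.00159), and fell by 0.59 in pHF against the libraries labelled HF (limma adjusted p = 0.00256). Between pHF and MF 3 of the 4 members tested were called, where 67.6% of all genes were. Ptprn was 0.83 higher (limma adjusted p = 9.06e-04), Itm2c 0.58 higher (limma adjusted p = 0.00315) and Dgcr2 fell by 1.15 (limma adjusted p = 3.74e-04), while Sorcs2 differed by -0.28 (limma adjusted p = 0.179).

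Dgcr2 had a mean of 656 and 644 reads per cytosine in pMF and 1642 and 1888 in MF, and fell by 0.80 on the centred log2 scale (limma adjusted p = 3.09e-04). It also fell by 1.42 in pHF against the libraries labelled HF, while in pLF the difference was -0.24 (limma adjusted p = 0.427). Over the 3 cytosines of Dgcr2 listed in all 12 libraries the differences were -1.0 in pLF (limma adjusted p = 0.00219), -1.39 in pMF and -2.12 in pHF. Over all listed cytosines they were -0.55 in pLF (limma adjusted p = 0.126), -0.58 in pMF (limma adjusted p = 0.107) and -1.03 in pHF (limma adjusted p = 0.00924). The calls in pLF and pMF thus depend on which cytosines are averaged. Sorcs2 had 615 and 552 reads in pMF and 1335 and 1503 in MF, and fell by 0.65 (limma adjusted p = 0.0013), with differences of -0.31 in pLF and -0.09 in pHF that were not called. Over all listed cytosines its difference in pLF was -0.94 and was called (limma adjusted p = 0.0349). Tenm3 fell by 0.72 in pMF (limma adjusted p = 0.00163) and by 1.37 in pHF, on 3 and 4 cytosines. Over all listed cytosines its difference in pMF was -0.54 and was not called (limma adjusted p = 0.148). Tenm3 had 36 to 77 listed cytosines in polysome libraries, against 592 to 816 in total libraries. Cytosines with under 10 reads are not listed and drop out of these means, which may therefore understate its fall. On the cytosines of the 4 libraries compared, Spg11 could be tested only between LF and MF, at -0.02 over 9 cytosines. The study's own RNA-seq, another measure, placed Dgcr2, Sorcs2 and Ptprn among transcripts without a significant change between total and polysome mRNA at all 3 doses. These were transcripts in which the study also called a differentially methylated site between the 2 fractions at each dose.

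Between doses within a fraction and without the libraries labelled HF, no member was called on the same cytosines. The count was 0 of 6 in LF against MF, 0 of 4 in pLF against pMF and 0 of 4 in pHF against pMF by limma, with 2, 0 and 1 at an unadjusted p under 0.05, and 0% of all genes were called in each. Over the cytosines of all 12 libraries, edgeR's quasi-likelihood test likewise called 0 genes in LF against MF and in pLF against pMF, while in pHF against pMF it called 8 of the 889 genes and limma 6, none of them a member. On leaving out 1 polysome library, which leaves 1 in its group, the number of genes limma called in pLF against pMF and in pHF against pMF changed strongly with the library left out. Between the libraries labelled HF and MF 5 of 5 members were called, where 82.9% of all genes were. Itm2c stood 1.24 higher, Ptprn 0.80, Dgcr2 0.50 and Tenm3 0.16 (limma adjusted p = 0.0496 for Tenm3), and Sorcs2 fell by 0.45.

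**Figure D4:**
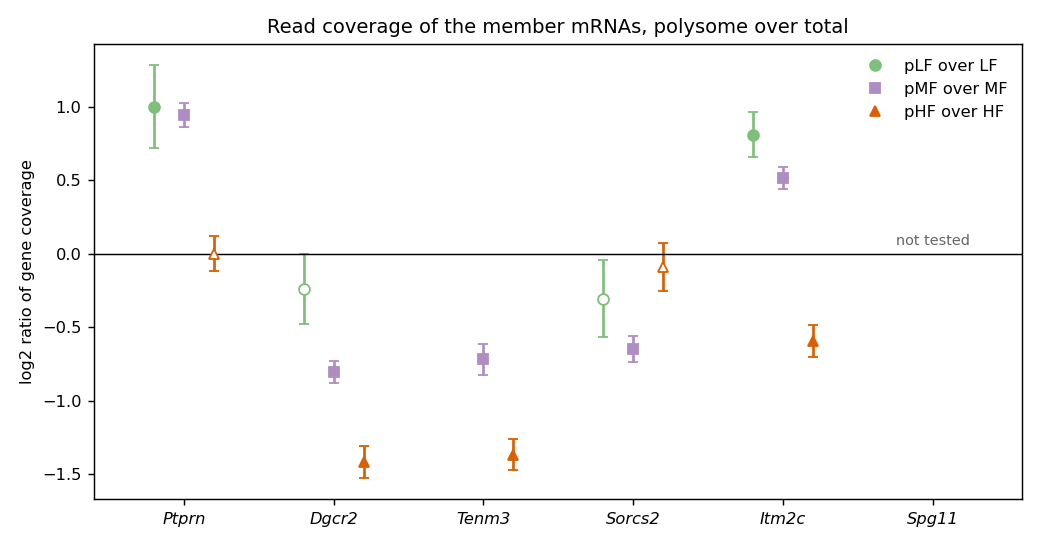
Centred log2 ratio of gene coverage, polysome over total (vertical axis, bars are ± 1 SE from limma), of each member gene (horizontal axis) at the 3 doses, over the cytosines listed in its 4 libraries; filled points passed after adjustment over all genes. In pMF against MF, Ptprn (0.95) and Itm2c (0.52) lie above 0 and Sorcs2 (-0.65), Tenm3 (-0.72) and Dgcr2 (-0.80) below.

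The number of cytosines listed differed between the fractions over all genes, with 1778693 to 2043837 in total and 779105 to 1645522 in polysome libraries, which do not overlap. Tenm3 had 592 to 816 listed cytosines in total and 36 to 77 in polysome libraries, and Spg11 132 to 313 and 21 to 125. Sorcs2 had 654 to 780 and 308 to 730, Dgcr2 416 to 815 and 203 to 661, Ptprn 269 to 381 and 150 to 465, and Itm2c 351 to 461 and 334 to 520. Of the 6, Tenm3 and Spg11 had ranges without overlap, as had all genes together, while Ptprn, higher in coverage in pLF and pMF, had overlapping ranges. Counts of listed cytosines depend on depth as well as on the mRNA.

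The coverage at the site itself did not follow one direction. Its ratios are of reads as listed and are not scaled for depth, so a ratio near 1, such as that of Dgcr2 in LF, carries no direction. At Ptprn exon 23 the mean coverage in polysome libraries was 11.6, 9.55 and 7.96 times that in total libraries in the 3 doses, while at Ptprn exon 19 the ratios were 1.34, 1.21 and 0.782. The 2 sites of 1 mRNA thus had very different ratios. At Itm2c the site was covered 6.81, 8.73 and 2.01 times more deeply in polysome libraries. At Tenm3 the total libraries were 19.4, 20.5 and 19.4 times deeper, at Sorcs2 site 2 2.40, 3.62 and 1.69 times, and at Dgcr2 1.11, 1.82 and 3.91 times.

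**Figure D5:**
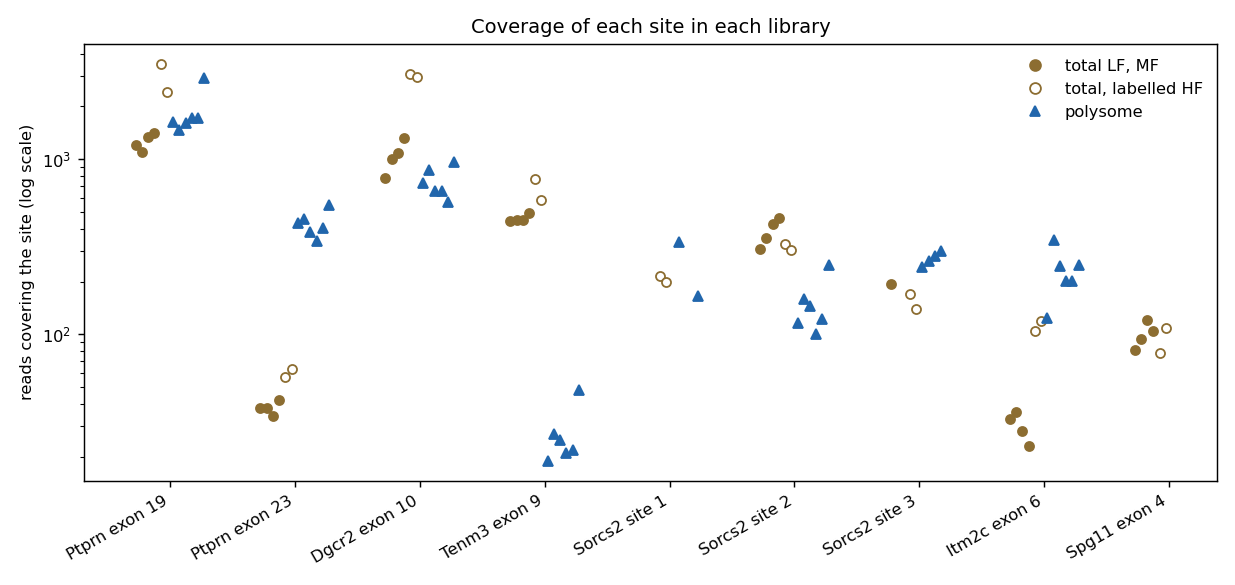
Coverage (reads, vertical log axis) at each of the 9 sites (horizontal axis) in each library that listed it; brown circles are total libraries, open where labelled HF, and blue triangles are polysome libraries. Ptprn exon 23 and Itm2c lie higher in polysome libraries, and Tenm3 lower, by a ratio of 20.5 in MF.

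Genes related to the members by family or pathway were set beside them on the cytosines of the 4 libraries compared. As for the members, 53.5%, 75.9% and 75.4% of all genes were called in the 3 comparisons, and nothing is read from the counts of calls in these lists. Of the 5 dense-core vesicle genes (Ptprn2, Chga, Chgb, Scg2, Scg3), 2 were tested in pMF against MF, where the granin Chga rose by 0.91 and the granin Scg3 fell by 2.09 on the log2 scale. In pLF against LF Scg3 fell by 2.53 and Chga differed by 0.02, and in pHF against the libraries labelled HF only Chga was tested and rose by 0.55. Of the 6 teneurins and latrophilin partners, 2, 2 and 3 were tested in the 3 comparisons, of which 0, 0 and 1 rose and 2, 1 and 1 fell. Adgrl2 fell by 1.24 in pLF and by 0.65 in pMF, and Adgrl1 fell by 1.86 in pLF, with -0.11 in pMF that was not called. In pHF against the libraries labelled HF Adgrl2 rose by 0.68 and Adgrl1 fell by 0.50, but in pHF against MF Adgrl2 fell by 0.45 and Chga differed by 0.16 without a call.

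Of the 6 VPS10 and neurotrophin receptors only Sort1, the sorting receptor sortilin, was tested, and it fell in each of the 3 comparisons, with differences of -0.68, -1.15 and -2.66, the last of which was -1.41 with MF in place of the libraries labelled HF. Of the 5 genes of the BRI family and amyloid precursor processing, 3, 4 and 3 were tested in the 3 comparisons, of which 1, 2 and 1 rose and 1, 1 and 1 fell. Itm2b, a relative of Itm2c, rose by 0.63 in pLF and by 0.66 in pMF and fell by 0.59 in pHF against the libraries labelled HF, the same signs as Itm2c. Against MF, Itm2b rose by 0.82 in pHF. App fell by 0.50 in pLF and the beta-secretase gene Bace1 fell by 1.36 in pMF. None of the 5 spatacsin partners had enough cytosines to be tested. Of the 6 genes near Dgcr2, 3, 2 and 2 were tested in the 3 comparisons, of which 2, 0 and 0 rose and 0, 1 and 2 fell. Among them Ess2 rose by 0.77 in pLF, while Dgcr6 fell by 0.30 in pMF and by 0.80 in pHF, or by 0.41 in pHF against MF. None of the genes named from these lists was called by limma between LF and MF, pLF and pMF or pHF and pMF.

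Across the 12 libraries, the sites whose levels were most like those of the members are given as a description, by Pearson's r among the 352 sites with the coverage in every library. These libraries share fraction and depth, which also order the levels. Ptprn exon 19 was most like sites of Gm20388 (r = 0.962) and Ranbp9 (r = 0.962), Dgcr2 most like sites of Rptor (r = 0.957) and Mfsd10 (r = 0.948), and Sorcs2 site 2 most like sites of Rptor (r = 0.950) and Mbd1 (r = 0.938). The sites with fewer reads had weaker likenesses, of 0.780 (Trp53i13) and 0.740 (Emc3) for Itm2c and of 0.708 (Emc3) and 0.590 (Itm2c) for Ptprn exon 23. In gene coverage Itm2c was most like Ddah2 (r = 0.987) and Gm49356 (r = 0.969) among 889 genes.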

How the data were processed

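RNA BS-seq lists of called cytosines, 1 per library, were analysed. As described in the study's methods, the authors used fastp for trimming, kept unique meRanGh alignments to mm10 and called cytosines with meRanCall, and the study's supplementary scripts name meRanAnnotate for gene names. The deposited counts give, for each cytosine, its coverage and its unconverted reads, which the authors did not normalise between libraries. The deposited level is a fraction, made by the authors as unconverted over unconverted and converted reads, leaving out other bases, and 0 values differed by more than 0.00051 when it was recomputed. The lists precede the authors' later filters on conversion, signal and structure. Entries with a variant base were dropped. Summed coverage was 1250056192 to 3018859494 reads over listed cytosines per library, and each interval shows the precision a site's coverage gives.

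Samples were grouped by the labels. The members, lists and tests were chosen with earlier results of these data known. Named genes are the 6 members, lists of relatives and the 2 genes or sites most like each member, and some genes of the lists are not reported here. Sites of level at least 10% were tested by Fisher's exact test, with the beta-binomial test and limma on log odds (pseudocount 0.5) as alternatives. Member p-values are given only where the site also passed in a condition outside the comparison, and between polysome and total mRNA no p of Fisher's test is given for a site that passed only in polysome conditions. Gene coverage was tested by limma, with edgeR's quasi-likelihood test as an alternative. The threshold of the adjusted p was 0.05. The 2 replicates are biological by the labels, and pooled tests do not include their spread. Tests were tried on simulated data. Sequence came from GRCm38.p6 and features from GENCODE vM21. The tools were Python 3.11.15, numpy 2.4.6, pandas 2.3.3, scipy 1.17.1, R 4.3.3, limma 3.58.1, edgeR 4.0.16 and matplotlib 3.10.9. Other settings were left-out replicates, stricter coverage and level limits, isolated sites, the positions of the study's own list, TMM scaling and other minimums of cytosines per gene.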

Additional observations from a re-analysis of the deposited data

Results flagged for a closer look

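The gap in Itm2c coverage between polysome and total mRNA differed between folate doses. The log2 difference of polysome minus total was lower at the high than at the mid dose, with an interaction of -1.53 (adjusted p = 4.2e-05, limma interaction term over 889 genes), and 499 of the 889 genes were called in the same test. The high dose of this term rests on the libraries labelled HF. Between the low and the mid dose the term was 0.17 (adjusted p = 0.989, limma).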

How the results depend on the processing

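Between polysome and total mRNA, Fisher's exact test called 52.8%, 51.3% and 64.4% of all sites in the 3 comparisons. Limma on the log odds called 277 of 799, 188 of 778 and 355 of 710. Most member calls were at Sorcs2 site 2, Dgcr2 and Ptprn exon 19, which passed only in polysome conditions, so nothing is read from their count. Of the 17 member site comparisons between polysome and total mRNA, 10 were called by Fisher's exact test. The count was 5 by limma on the log odds and 4 of 8 with a level limit of 0.2, and 9 to 10 under the other alternatives, with 9 when either replicate was left out. Of the 25 folate comparisons, 4 were called, against 3 by the beta-binomial test, 0 by limma, 2 of 11 at a level of 0.2 and 1 to 2 when a replicate was left out. Over all sites, Fisher's exact test called 0.84% in LF against MF and 89.1% in the libraries labelled HF against MF. It called 10.9% in pLF against pMF and 6.87% in pHF against pMF. Limma called 0 of all sites in LF against MF, in pLF against pMF and in pHF against pMF, with 234, 216 and 26 at an unadjusted p under 0.05. In gene coverage, 62.9%, 62.3% and 73.7% of all genes were called in the 3 polysome comparisons over cytosines listed in all 12 libraries. Over the cytosines of the 4 libraries compared it was 53.5%, 75.9% and 75.4%. For the members, 3 of 3 polysome comparisons were called, against 8 of 18 over all listed cytosines, 7 of 9 with at least 3 cytosines and 10 of 14 over the cytosines of the 4 libraries compared. Leaving out 1 library gave 2 to 3, and MF in place of the libraries labelled HF gave 3 of 3 but turned Itm2c from -1.19 to 0.32. The folate comparisons gave 1 of 4, against 2 of 12 with at least 3 cytosines, 5 of 19 over the 4 libraries compared and 1 when any library was left out. Between the libraries labelled HF and MF, 67.3% of all genes were called over cytosines listed in all 12 libraries, and 82.9% over those of the 4 libraries compared. In the other folate comparisons at most 0.675% were. Over all listed cytosines Itm2c in pHF against the libraries labelled HF was -0.38 (adjusted p = 0.172, limma). In that setting Dgcr2 and Tenm3 were not called in pMF against MF, while Sorcs2 was called in pLF against LF. Among the member site levels and the Itm2c coverage followed through these settings, no other direction of a called result reversed. Among the related genes, Itm2b and Adgrl2 also turned sign with MF in place of the libraries labelled HF.

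Replicate numbers were not treated as pairs. Correlations of same-numbered deviations ran from -0.121 to 0.0756 over 352 sites and from -0.429 to 0.251 over 889 genes. With 2 replicates per group these values cannot settle whether same-numbered libraries are paired. With the replicate block the counts of calls were 10, 4, 3 and 1, the same as without it, and crossed numbers, chosen after seeing the data, gave 4 for the folate levels with those of pMF exchanged in pLF against pMF only, and 3 and 1 for coverage with those of HF and pHF exchanged. Few polysome reads at Tenm3 and few total reads at Itm2c and Ptprn exon 23 limit those comparisons, and 2 replicates limit all of them.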
